A study of Mus musculus with 15 samples.

Results

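The chemokine ligands of tumor-associated macrophages (TAMs) were examined in tumors of the mouse liver. They were all rows of the expression table whose symbol was Ccl, Cxcl, Cx3cl or Xcl followed by a number and at most 1 letter, together with Pf4 and Ppbp, which are Cxcl-type chemokines under older names. The rule used symbols and no measured value, and it found 40 of the 55335 genes in the table. TAMs were sorted from orthotopic hepatocellular carcinomas of C57BL/6 mice with antibodies to CD11b and F4/80, and their RNA was sequenced. The tumors grew in the liver from the mouse hepatoma line Hepa1-6, whose cells had been infected with lentiviruses before. The control group carried control cells, the miR-144 group cells overexpressing miR-144 and the miR-451a group cells overexpressing miR-451a, with 5 samples in each of the 3 groups. The overexpression was thus in the tumor cells and not in the TAMs. A single hepatoma line was used, and the age and sex of the mice, and whether a sample was 1 mouse or a pool, are not given in the sources used here. The legend of the study's figure on this experiment states fewer samples per group than the labels hold, so how many of them are independent is uncertain. The p-values therefore measure only the spread between these samples. The comparison addressed which cytokines and related molecules of TAMs differed when the tumor cells carried more of either miRNA.

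Chemokines are small secreted proteins that steer leukocytes along gradients by binding G protein-coupled receptors. Most belong to the CC family (Ccl) or the CXC family (Cxcl), named for the spacing of their first cysteines, and many sit side by side in the genome as products of gene duplication. In tumors, macrophages are both a source of chemokines and a target of them. CCR2 ligands draw monocytes out of the blood, CXCR3 ligands draw effector T cells and NK cells, CCR4 ligands draw regulatory T cells, and CXCR2 ligands draw neutrophils.

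The miRNAs whose overexpression defines the groups are shown because every comparison turns on them. They come from RefSeq (GRCm38.p6) and lie next to each other on chromosome 11. Capitals mark the seed, bases 2 to 8, which pairs with target transcripts. The 3 seeds differ from each other. The labels do not say which arm of miR-144 was meant, so both are given.
mmu-miR-144-5p, chr11:78073010-78073032, plus strand: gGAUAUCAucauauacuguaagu
mmu-miR-144-3p, chr11:78073047-78073066, plus strand: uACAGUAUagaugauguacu
mmu-miR-451a, chr11:78073186-78073207, plus strand: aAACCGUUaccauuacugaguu

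FPKM (fragments scaled to the length of the transcript and to all mapped fragments) is scaled by transcript length, so levels of different genes can be set beside each other. Its sum over all genes was not the same in all samples. It was 300620 to 307552 in control, 285154 to 295105 with miR-144 and 283362 to 290739 with miR-451a. Of the 40 ligands, 17 had a mean of at least 1 FPKM over the 15 samples, 16 were lower but above 0 in some sample, and 7 were listed at 0 in every sample. Summed over the 40 ligands, the level was 1348 to 1565 FPKM in the control samples, 438 to 500.0 in the miR-144 samples and 431 to 478 in the miR-451a samples. This was 0.444 to 0.509% of the FPKM of all genes in control TAMs, 0.153 to 0.171% with miR-144 and 0.149 to 0.167% with miR-451a. Every control sample lay above every miRNA sample, and the sums of the miRNA groups overlapped. The sum is a description and was not tested, and it is carried by a few genes.

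In control TAMs, Ccl6 made up 35.7 to 40.8% of the sum, Ccl9 24.2 to 24.9% and Ccl8 20.4 to 22.1%. In the miR-144 samples Ccl8 was 0.477 to 1.13% and in the miR-451a samples 0.197 to 0.513%. Cxcl16 took 2.35 to 2.73% of the control sum, 15.8 to 17.2% with miR-144 and 15.6 to 16.8% with miR-451a. The share of Ccl3 was 1.27 to 1.82%, 12.3 to 14.5% and 12.4 to 15% in the same order. By mean level the order in control TAMs was Ccl6, Ccl9, Ccl8, Ccl7, Ccl2, Cxcl16 and Ccl3, where only Ccl2 and Cxcl16 overlapped among these neighbours. In both miRNA groups it was Ccl9, Ccl6, Cxcl16, Ccl3, Ccl4, Ccl7 and Ccl2. Among these neighbours, Ccl7 and Ccl2 overlapped in both miRNA groups, and Cxcl16 and Ccl3 overlapped in the miR-451a group.

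**Figure D1:**
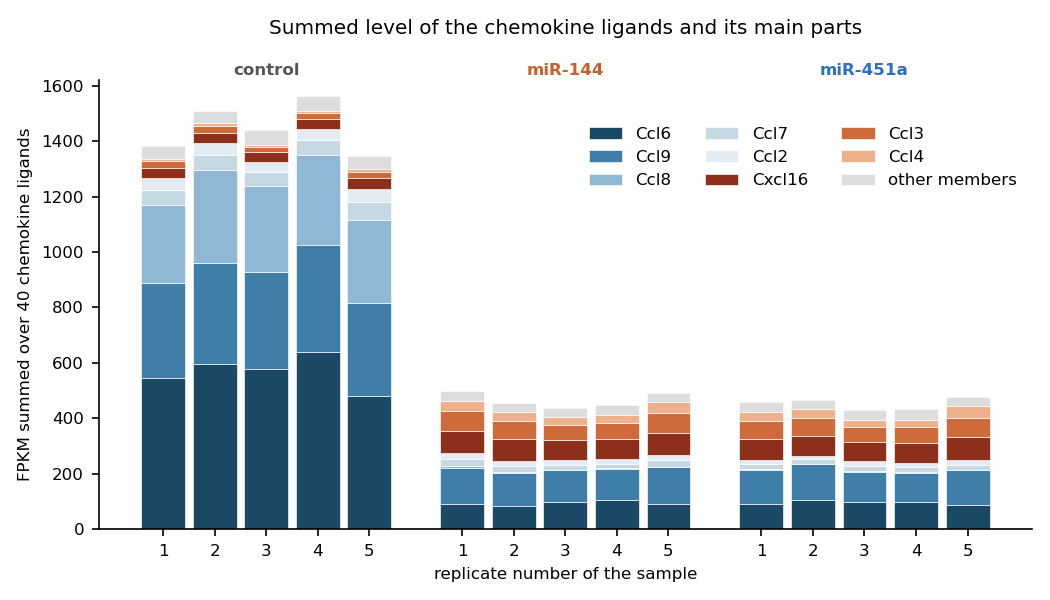
Bars show FPKM summed over the 40 chemokine ligands in each of the 15 samples (vertical axis from 0), split into 8 leading genes and the other members, with replicate numbers on the horizontal axis and groups named above. Control samples reach 1348 to 1565 FPKM, mostly Ccl6, Ccl9 and Ccl8, while miR-144 samples reach 438 to 500.0 and miR-451a samples 431 to 478, with almost no Ccl8.

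Levels were compared with limma on log2(FPKM + 1), over the 11419 genes that averaged 1 FPKM or more, and a gene was called at an adjusted p under 0.05. On this scale the change of a gene is understated when its level is near or below 1 FPKM. The minimum of 1 FPKM was a mean over all 15 samples, so a ligand could pass through the groups where it was high. Among these, Ccl24 averaged 0.266 and 0.237 FPKM in the miRNA groups, and Cxcl10 and Cxcl2 averaged 0.371 and 0.253 in control. Ccl22 and Ccl11, at 1.91 and 1.71 FPKM in control, did not pass. The counts in each direction depend on this minimum. Of the 17 ligands tested, 14 were called with miR-144 against control, 6 higher and 8 lower. Among all tested genes 67.2% were called in that comparison, 47.1% higher and 20.1% lower. With miR-451a 14 ligands were called too, 6 higher and 8 lower, beside 68.3% of all genes, 48.1% higher and 20.3% lower. These comparisons share the control samples. A log2 difference of at least 1 in either direction was reached by 11 of the called ligands with miR-144 (4 higher and 7 lower), beside 7.78% of all genes, and by 12 with miR-451a (5 higher and 7 lower), beside 8.27% of all genes. The samples did not overlap with control for 13 ligands in each comparison, 6 above and 7 below, beside 53.9% of all genes in the first comparison and 55.2% in the second. The median log2 difference of the 17 ligands was -0.02 for miR-144 and -0.20 for miR-451a, and that of all tested genes was 0.13 and 0.14. This shift of all genes is part of every difference given here. Under median centring, which removes it, 5 ligands were higher and 8 lower with miR-144, and 6 higher and 8 lower with miR-451a, beside 61.5% and 63.2% of all genes called, while the higher share of all called genes went from 70.1% and 70.3% to 50.01% and 49.6%.

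**Figure D2:**
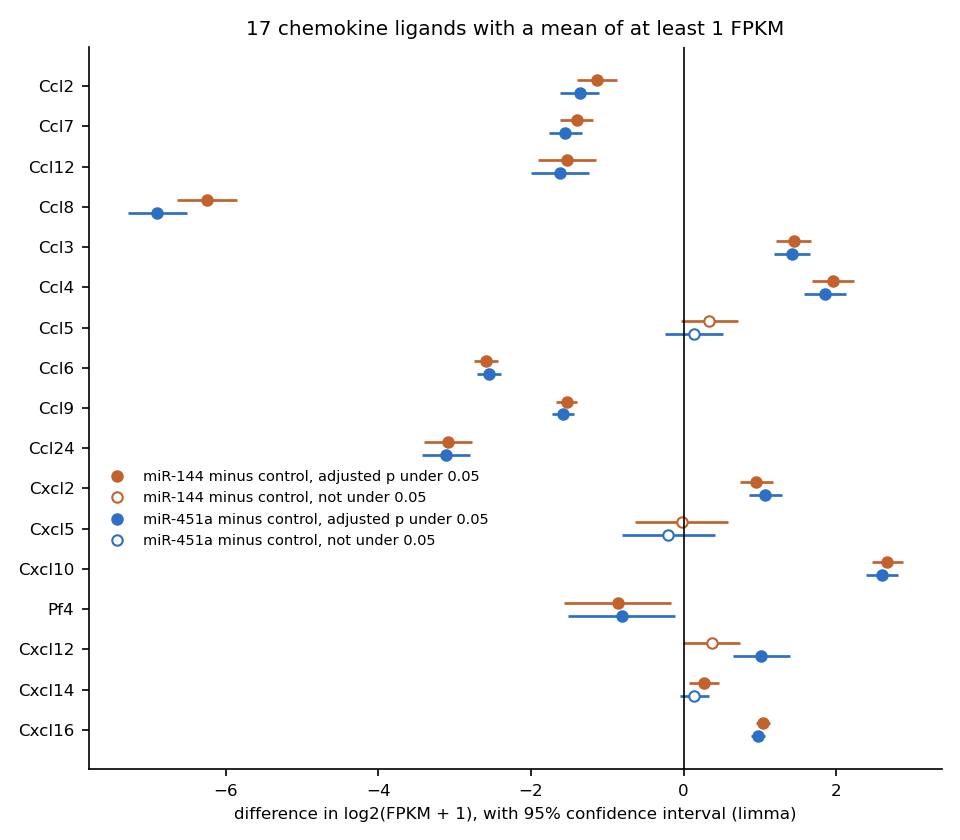
Differences in log2(FPKM + 1) from control (horizontal axis) for the 17 chemokine ligands that averaged 1 FPKM or more, with 95% confidence intervals from limma, filled where the adjusted p was under 0.05. Ccl8 lies farthest to the left at -6.24 and -6.89, Cxcl10 farthest to the right at 2.67 and 2.6, and the intervals of Ccl5 and Cxcl5 cross 0 in both comparisons.

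The depth implied by the steps between low FPKM values was about 15.5 to 30.3 M fragments per sample. Genes of the sorted population (Adgre1, Itgam, Csf1r, Cd68, Mertk and Fcgr1) summed to 1978 to 2130.0 FPKM in control TAMs, 2169 to 2253 with miR-144 and 2098 to 2248 with miR-451a, and each of the 6 was present in every sample. Of the sort antigens, Itgam (CD11b) had 9.99 to 38.8 FPKM in control TAMs, against 43.9 to 76.1 with miR-144 and 24.6 to 74.0 with miR-451a, and Adgre1 (F4/80) had 131 to 141, 334 to 394 and 336 to 380.2 in the same order. Adgre1 was thus lower in all control samples, while Itgam overlapped between control and miR-451a, and their part in the values of the ligands was not tested. All 5 hepatocyte genes were listed at 0 in every sample, and the 6 T cell genes together stayed at or under 0.490 FPKM. B cell genes summed to 0.138 to 0.375 FPKM in control TAMs, 1.11 to 1.45 with miR-144 and 1.17 to 1.73 with miR-451a, so that control lay below both. NK cell genes summed to 0.192 to 0.416, 0.0477 to 0.168 and 0.0323 to 0.137 FPKM in the same order, with control above both, and endothelial genes to 3.70 to 4.29, 4.67 to 5.03 and 4.65 to 5.93, with control below both. These sums rest on few genes. Of the genes listed, 3 of 4 for B cells, 5 of 5 for NK cells and 3 of 5 for endothelium stayed under 1 FPKM. Of the NK cell genes, 3 were at 0 in every sample. The part of these lists in the values of the ligands was not tested. The Kupffer cell list reached 3.30 to 3.77 FPKM in control TAMs, 17.1 to 50.1 with miR-144 and 16 to 47.3 with miR-451a, nearly all of it Cd5l, with Clec4f at 0. In RNA of a sorted population, fewer cells of a type and less RNA per cell cannot be told apart.

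**Figure D3:**
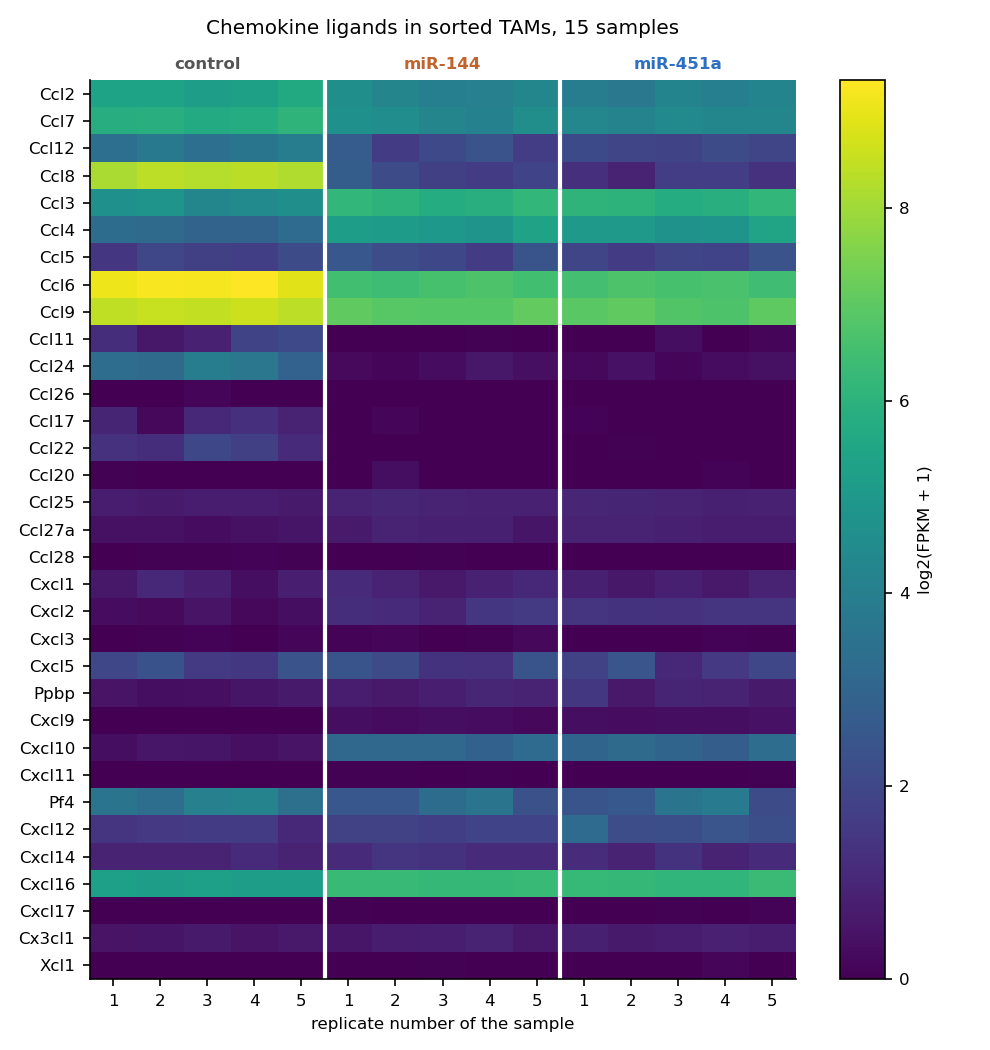
Colours give log2(FPKM + 1) of the 33 chemokine ligands above 0 in some sample (rows, ordered by receptor) in the 15 samples (columns, replicate numbers within the groups named above). Ccl2, Ccl7, Ccl12, Ccl8, Ccl6, Ccl9, Ccl24 and Ccl22 are brighter in control TAMs, while Ccl3, Ccl4, Cxcl2, Cxcl10 and Cxcl16 are brighter in both miRNA groups.

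All 3 CCR2 ligands, the monocyte chemoattractants, were lower with either miRNA. Ccl2 stood at 41.4, 41.7, 35.3, 38.2 and 49.0 FPKM in control replicates 1 to 5 (mean 41.1 ± 5.14, SD), 24.1, 18.1, 15.2, 15.8 and 18.3 in miR-144 replicates 1 to 5 (mean 18.3 ± 3.52), and 14.5, 12.4, 17.4, 15.2 and 17.5 in miR-451a replicates 1 to 5 (mean 15.4 ± 2.14). For Ccl2 the lowest control sample was above the highest sample of either miRNA group. The control mean was 2.24-fold above the miR-144 mean and 2.67-fold above the miR-451a mean when group means are compared. The log2 difference of Ccl2 was -1.13 in the miR-144 group and -1.36 in the miR-451a group (SE 0.12 for both, adjusted p = 7.80e-07 and 9.25e-08, limma).

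Ccl7 had 54.7, 56.5, 50.3, 54.1 and 65.9 FPKM in control replicates 1 to 5 (mean 56.3 ± 5.81, SD), 24.3, 22.5, 17.9, 16.2 and 23.2 in miR-144 replicates 1 to 5 (mean 20.8 ± 3.59), and 18.8, 16.8, 20.3, 18.5 and 18.3 in miR-451a replicates 1 to 5 (mean 18.5 ± 1.25). Ccl7, a relative of Ccl2 that also binds other CC receptors, did not overlap between control and either miRNA group, and its log2 difference was -1.40 in the miR-144 group and -1.55 in the miR-451a group (SE 0.10 for both, adjusted p = 9.27e-09 and 2.72e-09, limma). Ccl12 measured 9.68, 12.6, 9.57, 11.3 and 14.2 FPKM in control replicates 1 to 5 (mean 11.5 ± 1.99, SD), 5.59, 2.10, 3.17, 4.25 and 2.22 in miR-144 replicates 1 to 5 (mean 3.47 ± 1.47), and 3.30, 2.87, 2.72, 3.41 and 2.87 in miR-451a replicates 1 to 5 (mean 3.03 ± 0.303). Ccl12, the rodent monocyte chemoattractant encoded near them, was below control in all 10 miRNA samples. Its log2 difference was -1.53 with miR-144 (SE 0.18, adjusted p = 1.98e-06, limma) and -1.62 with miR-451a.

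Ccl8 showed the largest difference among the tested ligands. In mice it is a ligand of CCR8, a receptor found on Th2 and regulatory T cells. Ccl8 had 282, 333, 310.0, 328 and 298 FPKM in control replicates 1 to 5 (mean 310.0 ± 21.1, SD), 5.66, 3.45, 2.41, 2.14 and 2.66 in miR-144 replicates 1 to 5 (mean 3.26 ± 1.43), and 1.45, 0.915, 2.19, 2.22 and 1.52 in miR-451a replicates 1 to 5 (mean 1.66 ± 0.553). The lowest control sample was far above the highest miRNA sample, and the miRNA groups overlapped with each other. The control mean of Ccl8 was 95 times the miR-144 mean and 187 times the miR-451a mean. The log2 difference from control was -6.24 in the miR-144 group and -6.89 in the miR-451a group (SE 0.18 for both, adjusted p = 2.50e-13 and 7.88e-14, limma). Every miRNA sample was still above 0.378 FPKM, the level of 3 fragments in the shallowest sample. Ccl1, the other CCR8 ligand, was listed at 0 in all samples.

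Ccl8 (ENSMUSG00000009185, chr11:82115185-82116799, plus strand) lies in a run of 6 chemokine genes on chromosome 11, from 82035571 to 82305690, in the order Ccl2, Ccl7, Ccl11, Ccl12, Ccl8 and Ccl1. Coordinates are those of the GENCODE M21 annotation, since the build used by the authors is not given in the sources used here. Ccl2, Ccl7, Ccl12 and Ccl8 were all called lower in both comparisons, Ccl11 was called lower in a fit without a minimum level, and Ccl1 was not detected. The 250 bases before the start of Ccl8 (RefSeq, GRCm38.p6) are shown because it had the largest difference, and capitals mark a TATA box, which began at position -32 relative to the start. Its 6 letters or their reverse complement occurred in 11 of 35 windows of 300 bases at the starts of 29 ligands, and in 13.6% of 32851 such windows of all genes.
Ccl8 promoter, chr11:82114935-82115184, plus strand: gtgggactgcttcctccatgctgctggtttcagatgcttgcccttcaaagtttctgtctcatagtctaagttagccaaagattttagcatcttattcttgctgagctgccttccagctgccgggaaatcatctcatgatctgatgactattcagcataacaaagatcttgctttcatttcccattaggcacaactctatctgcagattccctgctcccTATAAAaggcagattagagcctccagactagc

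Ccl3 and Ccl4, which attract T cells and macrophages, were higher with either miRNA, while Ccl5, another attractant of T cells, was not called. Ccl3 had 24.4, 27.5, 18.3, 20.8 and 23.8 FPKM in control replicates 1 to 5 (mean 23.0 ± 3.55, SD), 71.4, 63.8, 53.9, 58.6 and 71.2 in miR-144 replicates 1 to 5 (mean 63.8 ± 7.70), and 66.4, 64.1, 53.6, 58.5 and 71.8 in miR-451a replicates 1 to 5 (mean 62.9 ± 7.06). All 10 miRNA samples were above all control samples, with 2.78 times the control mean for miR-144 and 2.74 times for miR-451a. For Ccl3 the log2 difference was 1.44 in the miR-144 group and 1.42 in the miR-451a group (SE 0.11 for both, adjusted p = 1.51e-08 and 1.69e-08, limma).

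Ccl4 had 8.91, 8.43, 6.83, 6.86 and 8.54 FPKM in control replicates 1 to 5 (mean 7.91 ± 0.990, SD), 36.5, 34.2, 30.6, 27.2 and 40.5 in miR-144 replicates 1 to 5 (mean 33.8 ± 5.15), and 30.8, 31.4, 25.8, 27.5 and 42.3 in miR-451a replicates 1 to 5 (mean 31.6 ± 6.42). Ccl4 did not overlap between control and the miRNA groups either, and its mean was 4.27 times that of control with miR-144 and 3.99 times with miR-451a. On the log2 scale it differed from control by 1.96 in the miR-144 group and 1.86 in the miR-451a group (SE 0.13 for both, adjusted p = 2.74e-09 and 4.93e-09, limma). Ccl5 had 2.58 ± 0.621 FPKM in control TAMs, 3.58 ± 1.09 with miR-144 and 2.94 ± 0.799 with miR-451a (mean ± SD, n = 5 each). Samples of all 3 groups overlapped for Ccl5, and the log2 difference was 0.34 (95% confidence interval -0.04 to 0.71) with miR-144 and 0.14 (-0.24 to 0.51) with miR-451a. Without miR-144 replicate 4, the lowest Ccl5 sample of its group, the difference with miR-144 was 0.48 and was called (adjusted p = 0.0164, limma).

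Ccl6 and Ccl9, CCR1 ligands of rodents that macrophages make in large amounts, were the most abundant ligands in the table and were lower with either miRNA. Ccl6 had 546, 596, 579, 638 and 481 FPKM in control replicates 1 to 5 (mean 568 ± 58.9, SD), 90.4, 85.1, 96.8, 104 and 89.8 in miR-144 replicates 1 to 5 (mean 93.1 ± 7.20), and 91.7, 104, 96.5, 98.8 and 86.6 in miR-451a replicates 1 to 5 (mean 95.6 ± 6.73). For Ccl6 the control mean was 6.10 times the miR-144 mean and 5.94 times the miR-451a mean, with no overlap. On the log2 scale, Ccl6 differed by -2.59 in the miR-144 group and -2.56 in the miR-451a group (SE 0.07 for both, adjusted p = 1.87e-13 and 1.97e-13, limma).

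Ccl9 had 343, 366, 349.5, 386 and 335 FPKM in control replicates 1 to 5 (mean 356 ± 20.1, SD), 131, 118, 116, 114 and 133 in miR-144 replicates 1 to 5 (mean 123 ± 9.07), and 123, 129.7, 110.0, 105 and 126 in miR-451a replicates 1 to 5 (mean 119 ± 10.8). Control was 2.90 times the miR-144 mean and 3.0 times the miR-451a mean for Ccl9, again without overlap. Against control, the log2 difference was -1.53 in the miR-144 group and -1.58 in the miR-451a group (SE 0.06 for both, adjusted p = 1.80e-11 and 1.17e-11, limma). Ccl6 and Ccl9 lie on the minus strand of chromosome 11 in a second run of genes, from 83525778 to 83664683, in the order Ccl5, Ccl9, Ccl6, Ccl3 and Ccl4. Within this run of 5 genes the pair in the middle was lower, the pair Ccl3 and Ccl4 was higher, and Ccl5 was not called. The gap between Ccl6, which was lower, and Ccl3, which was higher, is 54.8 kb.

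**Figure D4:**
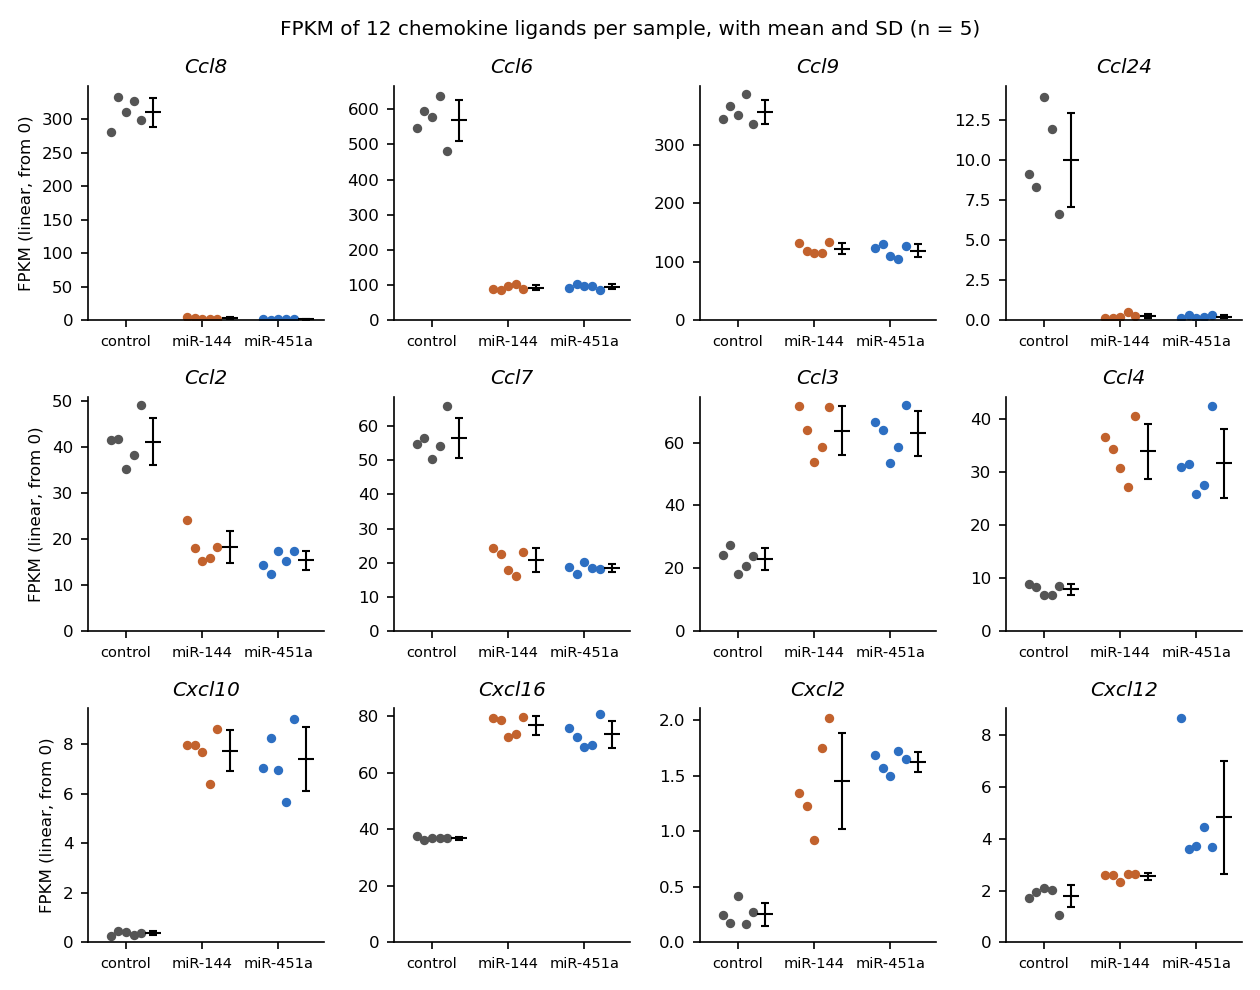
FPKM (vertical axes, linear and starting at 0) of 12 chemokine ligands in each sample of the 3 groups, with the mean and SD of 5 samples as a bar beside the points. Control samples lie above all miRNA samples for Ccl8, Ccl6, Ccl9, Ccl24, Ccl2 and Ccl7 and below them for Ccl3, Ccl4, Cxcl10, Cxcl16, Cxcl2 and Cxcl12, and miR-451a replicate 1 stands apart for Cxcl12 at 8.66 FPKM.

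Ccl24 and Ccl11, eotaxins that attract eosinophils through CCR3, were lower with either miRNA. Ccl24 had 9.15, 8.30, 13.9, 11.9 and 6.64 FPKM in control replicates 1 to 5 (mean 9.98 ± 2.91, SD), 0.169, 0.129, 0.239, 0.501 and 0.293 in miR-144 replicates 1 to 5 (mean 0.266 ± 0.145), and 0.148, 0.361, 0.121, 0.228 and 0.325 in miR-451a replicates 1 to 5 (mean 0.237 ± 0.105). For Ccl24 (eotaxin-2) no miRNA sample reached the lowest control sample, and the control mean was 37.5 times the miR-144 mean and 42.2 times the miR-451a mean. In each miRNA group 1 sample was at or under its level of 3 fragments. The log2 difference of Ccl24 was -3.08 in the miR-144 group and -3.11 in the miR-451a group (SE 0.15 for both, adjusted p = 7.01e-11 and 5.85e-11, limma). Eosinophil genes summed to 2.43 to 2.98 FPKM in control TAMs, 0.839 to 0.990 with miR-144 and 0.615 to 1.08 with miR-451a. That sum was mostly Siglecf in control TAMs, Prg2 was at 0 in all samples, and its part in the difference was not tested.

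Ligands with a mean under 1 FPKM were tested in the same way in a fit without a minimum, over 29540 genes, in which 21 of 33 ligands were called with miR-144, beside 32.8% of all genes, and 22 of 33 with miR-451a, beside 34.2%. Of the 16 low ligands, 4 were higher and 4 lower with miR-144, and 5 were higher and 4 lower with miR-451a. In the fit without a minimum 10 of the 33 ligands were higher and 11 lower with miR-144, beside 23.1% and 9.65% of all genes, and 11 were higher and 11 lower with miR-451a, beside 24.5% and 9.69%. Median centring of that fit gave 7 higher and 17 lower ligands for miR-144, beside 14.0% and 54.1% of all genes (68.1% in either direction), and 9 higher and 18 lower for miR-451a, beside 14.4% and 55.5% (69.9% in either direction). This centring also subtracts an offset from values at or near 0, so its lower counts are inflated by such genes. Ccl11 (eotaxin-1) had 0.535 to 3.18 FPKM in the control samples. It was at 0 in 4 of 5 miR-144 samples and 3 of 5 miR-451a samples, where it otherwise reached 0.0411 and 0.259. Its log2 difference was -1.32 in the miR-144 group and -1.24 in the miR-451a group (SE 0.22 for both, adjusted p = 3.03e-04 and 4.75e-04, limma). Ccl26 was above 0 in 1 sample, control replicate 3 at 0.0916 FPKM.

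Ccl17 and Ccl22, CCR4 ligands that macrophages make under IL-4, were lower with either miRNA. Ccl22 had 1.53, 1.33, 3.07, 2.43 and 1.20 FPKM in control replicates 1 to 5, was listed at 0 in all 5 miR-144 samples and lay between 0 and 0.0302 with miR-451a, at or under the level of 3 fragments in all 10 miRNA samples. The log2 difference from control was -1.5 in the miR-144 group and -1.48 in the miR-451a group (SE 0.13 for both, adjusted p = 4.70e-07 and 5.11e-07, limma). Ccl17 had 0.935, 0.156, 1.10, 1.37 and 0.891 FPKM in control replicates 1 to 5 and was listed at 0 in 4 of 5 samples of each miRNA group, the others being 0.11 in miR-144 replicate 2 and 0.0658 in miR-451a replicate 1. For Ccl17, the level of 3 fragments was not exceeded in control replicate 2 or in any of the 10 miRNA samples. For Ccl17 the log2 difference was -0.85 in the miR-144 group and -0.86 in the miR-451a group (SE 0.14 for both, adjusted p = 2.05e-04 and 1.70e-04, limma). Dendritic cells also make these ligands, and the 6 dendritic cell genes summed to 0.281 to 0.420 FPKM in control TAMs, 0.473 to 0.682 with miR-144 and 0.401 to 0.747 with miR-451a.

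Ccl17 and Ccl22 flank Cx3cl1 on chromosome 8, from 94745590 to 94812036. Cx3cl1 differed in the other direction and was called with miR-451a and not with miR-144, with 0.17 for miR-144 (adjusted p = 0.0521, limma) and 0.22 for miR-451a (adjusted p = 0.0158, limma), and neither was called under median centring (0.04 and 0.07). The bases before the Ccl17 start (RefSeq, GRCm38.p6) are shown because it held letters of a signal that macrophages answer to. STAT6, the factor downstream of IL-4, binds sites with TTC, any 4 bases and GAA. The Ccl17 window held 1 match, shown in capitals, which began at position -154 relative to the start. These letters, searched on both strands, occurred in 1 of 35 windows of the ligands and 6.95% of all windows. A match of letters is a description and not a site.
Ccl17 promoter, chr8:94810203-94810452, plus strand: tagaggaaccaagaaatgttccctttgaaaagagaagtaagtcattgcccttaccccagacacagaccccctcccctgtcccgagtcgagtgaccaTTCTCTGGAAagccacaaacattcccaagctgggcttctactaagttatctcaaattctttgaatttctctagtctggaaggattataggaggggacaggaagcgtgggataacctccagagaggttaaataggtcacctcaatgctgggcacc

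The CXCR3 ligands Cxcl10 and Cxcl9, interferon-induced attractants of effector T cells and NK cells, were higher with either miRNA, at very different levels. Cxcl10 had 0.262, 0.469, 0.435, 0.290 and 0.400 FPKM in control replicates 1 to 5 (mean 0.371 ± 0.0905, SD), 7.97, 7.98, 7.71, 6.41 and 8.64 in miR-144 replicates 1 to 5 (mean 7.74 ± 0.820), and 7.05, 8.27, 6.95, 5.67 and 9.03 in miR-451a replicates 1 to 5 (mean 7.39 ± 1.29). Every miRNA sample of Cxcl10 was above every control sample, and the means were 20.8 and 19.9 times the control mean. On the log2 scale it differed from control by 2.67 in the miR-144 group and 2.6 in the miR-451a group (SE 0.10 for both, adjusted p = 2.99e-12 and 3.75e-12, limma), the largest rise among the tested ligands. Cxcl9 was at or under the level of 3 fragments in all 5 control samples (0 to 0.0239 FPKM) and above it in all miRNA samples, with 0.145 to 0.259 FPKM for miR-144 and 0.230 to 0.367 for miR-451a. On the log2 scale, Cxcl9 differed by 0.28 in the miR-144 group and 0.35 in the miR-451a group (SE 0.03 for both, adjusted p = 2.61e-06 and 2.75e-07, limma). Cxcl11 was listed at 0 in all control samples and reached at most 0.0410 FPKM, which is near the level of 3 fragments. Its log2 difference was 0.03 with miR-144, which was called (adjusted p = 0.0172, limma), and 0.02 with miR-451a, which was not (adjusted p = 0.0707, limma). Both differences of Cxcl11 changed sign under median centring (-0.10 and -0.12).

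Cxcl9, Cxcl10 and Cxcl11 are neighbours on the minus strand of chromosome 5, from 92321347 to 92365485. The bases before the Cxcl10 start are shown because of its rise. Capitals mark GAAA, any 2 bases and GAAA, the letters of an interferon-stimulated response element (ISRE), which began at position -213 relative to the start. These letters occurred on either strand in 3 of 35 windows of the ligands (Cxcl10, Cxcl14 and Ccl19) and in 3.44% of all windows. Cxcl9 is not among the 3, and the Cxcl11 window was not analysed here.
Cxcl10 promoter, chr5:92348890-92349139, minus strand: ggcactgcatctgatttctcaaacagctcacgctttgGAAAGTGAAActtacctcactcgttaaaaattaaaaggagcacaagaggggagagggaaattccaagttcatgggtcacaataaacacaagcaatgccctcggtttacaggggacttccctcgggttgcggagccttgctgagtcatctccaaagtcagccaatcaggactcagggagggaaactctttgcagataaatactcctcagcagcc

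Of the CXCR2 ligands, which attract neutrophils, only Cxcl2 was called in both comparisons. Cxcl2 had 0.243, 0.171, 0.415, 0.161 and 0.273 FPKM in control replicates 1 to 5 (mean 0.253 ± 0.102, SD), 1.34, 1.23, 0.921, 1.75 and 2.01 in miR-144 replicates 1 to 5 (mean 1.45 ± 0.433), and 1.69, 1.57, 1.5, 1.72 and 1.65 in miR-451a replicates 1 to 5 (mean 1.62 ± 0.0907). All miRNA samples were above all control samples for Cxcl2, and its log2 difference was 0.95 in the miR-144 group and 1.07 in the miR-451a group (SE 0.10 for both, adjusted p = 6.48e-07 and 1.68e-07, limma). The means were 5.73 times control with miR-144 and 6.42 times with miR-451a. Cxcl5 had 3.03 ± 1.12 FPKM in control TAMs, 3.05 ± 1.40 with miR-144 and 2.58 ± 1.27 with miR-451a (mean ± SD, n = 5 each), and its samples overlapped in all groups. Against control, the log2 difference was -0.02 (95% confidence interval -0.64 to 0.59) with miR-144 and -0.20 (-0.81 to 0.41) with miR-451a.

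Cxcl1 lay between 0.279 and 1.15 FPKM over the 15 samples and was not called (log2 difference 0.19 and 0.04, adjusted p = 0.307 and 0.887, limma). Cxcl3 stayed between 0 and 0.157 FPKM. A part of the Cxcl2 transcript, 5.35% of its 50-base stretches, also occurs in other transcripts, mostly Cxcl3, so a small part of its reads could be shared. Cxcl5, Ppbp, Pf4, Cxcl3, Cxcl15, Cxcl1 and Cxcl2 form a run of 7 genes on the plus strand of chromosome 5, from 90759360 to 90905938. Neutrophil genes were nearly absent except Csf3r, which macrophages also express, and their sum was 64.9 to 79.2 FPKM in control TAMs, 46.3 to 52.2 with miR-144 and 44.1 to 53.2 with miR-451a.

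NF-kB sites often read GGGA, any base and TTTCC. These letters occurred on either strand in 3 of 35 windows of the ligands, those of Cxcl1, Cxcl2 and Cxcl3, and in 0.411% of all windows. The Cxcl1 and Cxcl2 windows are shown side by side because they hold the same 10 letters, in capitals, while Cxcl2 was called and Cxcl1 was not. Relative to the start, the match began at position -71 in Cxcl1, -97 in Cxcl2 and -73 in Cxcl3.
Cxcl1 promoter, chr5:90890995-90891244, plus strand: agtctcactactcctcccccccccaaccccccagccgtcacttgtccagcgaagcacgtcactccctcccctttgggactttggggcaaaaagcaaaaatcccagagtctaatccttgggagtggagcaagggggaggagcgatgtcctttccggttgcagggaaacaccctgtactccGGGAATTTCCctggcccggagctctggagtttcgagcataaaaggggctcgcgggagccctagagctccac
Cxcl2 promoter, chr5:90903649-90903898, plus strand: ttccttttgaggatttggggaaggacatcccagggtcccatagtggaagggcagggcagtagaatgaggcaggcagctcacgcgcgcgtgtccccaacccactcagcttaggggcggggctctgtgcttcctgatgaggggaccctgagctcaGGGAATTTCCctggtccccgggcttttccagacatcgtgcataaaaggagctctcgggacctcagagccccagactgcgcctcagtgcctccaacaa

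Pf4 and Ppbp, chemokines of platelet granules, had differences of opposite sign. Pf4 had 11.0, 9.31, 15.5, 16.9 and 9.73 FPKM in control replicates 1 to 5 (mean 12.5 ± 3.49, SD), 4.77, 4.82, 8.77, 10.9 and 4.0 in miR-144 replicates 1 to 5 (mean 6.65 ± 3.01), and 4.30, 4.90, 11.1, 12.8 and 3.48 in miR-451a replicates 1 to 5 (mean 7.32 ± 4.31). Pf4 overlapped between control and both miRNA groups, and replicates 3 and 4 were the highest in every group. Its log2 difference was -0.87 in the miR-144 group and -0.81 in the miR-451a group (SE 0.33 for both, adjusted p = 0.0302 and 0.0395, limma). The call with miR-144 was lost on leaving out control replicate 3 or 4, or replicate 1, 2 or 5 of the miR-144 group (adjusted p = 0.0661 to 0.0766, limma). With miR-451a it was lost on leaving out control replicate 1, 3 or 4, or replicate 1, 2 or 5 of its own group (adjusted p = 0.0521 to 0.107, limma). Neither comparison was called in the fit without a minimum (adjusted p = 0.0681 and 0.0847, limma), nor miR-451a after rescaling to TPM. With the replicate number as a block, both comparisons were called in the fits with and without a minimum.

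Ppbp lay between 0.257 and 0.604 FPKM in control TAMs, 0.568 to 1.02 with miR-144 and 0.572 to 1.89 with miR-451a. The log2 difference from control was 0.32 with miR-144 (adjusted p = 0.105, limma) and 0.47 with miR-451a (adjusted p = 0.0192, limma). Under quantile normalization neither was called. MiR-451a replicate 1 was the highest sample of Ppbp, and without it the miR-144 comparison was called as well (adjusted p = 0.0145, limma). The other platelet genes (Itga2b, Gp9, Gp1bb, Gp1ba, Gp6 and Treml1) summed to 2.11 to 2.54 FPKM in control TAMs, 3.49 to 4.0 with miR-144 and 3.75 to 5.19 with miR-451a, where replicate 1 was again the highest. Of these 6 genes, 5 never passed 1 FPKM, and their part in the values of Pf4 and Ppbp was not tested.

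Cxcl16, which occurs as a membrane-bound and a shed ligand of CXCR6, was higher with either miRNA. Cxcl16 had 37.5, 36.1, 37.0, 36.8 and 36.8 FPKM in control replicates 1 to 5 (mean 36.8 ± 0.496, SD), 79.2, 78.7, 72.5, 73.6 and 79.7 in miR-144 replicates 1 to 5 (mean 76.7 ± 3.40), and 75.7, 72.5, 68.9, 69.9 and 80.6 in miR-451a replicates 1 to 5 (mean 73.5 ± 4.74). The control samples were between 36.1 and 37.5 FPKM, below all miRNA samples, and the means were 2.08 and 2.0 times the control mean. On the log2 scale it differed from control by 1.04 in the miR-144 group and 0.98 in the miR-451a group (SE 0.04 for both, adjusted p = 9.15e-12 and 1.77e-11, limma).

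Cxcl12, a ligand of CXCR4 known from stromal cells, was called with miR-451a and not with miR-144. Cxcl12 had 1.72, 1.96, 2.11, 2.04 and 1.07 FPKM in control replicates 1 to 5 (mean 1.78 ± 0.424, SD), 2.59, 2.6, 2.32, 2.64 and 2.63 in miR-144 replicates 1 to 5 (mean 2.56 ± 0.133), and 8.66, 3.61, 3.73, 4.44 and 3.68 in miR-451a replicates 1 to 5 (mean 4.82 ± 2.17). MiR-144 and miR-451a samples were all above the control samples, and all miR-451a samples above all miR-144 samples. Against control, the log2 difference was 0.37 in the miR-144 group and 1.02 in the miR-451a group (SE 0.17 for both, adjusted p = 0.0732 and 9.72e-05, limma). MiR-451a replicate 1 lay far above the rest of its group. Without it the difference was 0.82 with miR-451a (adjusted p = 6.38e-06, limma), and 0.37 with miR-144, which was then called (adjusted p = 0.00344, limma) because the groups share 1 estimate of the spread. Fibroblast genes (Col1a1, Col1a2, Col3a1, Dcn and Pdgfrb) summed to 106 to 131 FPKM in control TAMs, 141 to 209 with miR-144 and 180.4 to 231 with miR-451a, with replicate 1 the highest of the miR-451a group. Their part in the difference was not tested.

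Cxcl14, a homeostatic chemokine, had 0.950 ± 0.136 FPKM in control TAMs, 1.35 ± 0.242 with miR-144 and 1.16 ± 0.283 with miR-451a (mean ± SD, n = 5 each). Its log2 difference was 0.27 with miR-144 (adjusted p = 0.0162, limma), which was lost under median centring (0.13) and quantile normalization (0.08), and 0.14 with miR-451a (adjusted p = 0.183, limma). Cx3cl1, the membrane-bound ligand of CX3CR1, lay between 0.392 and 0.874 FPKM over all samples. Cxcl17 reached 0.0564 FPKM and Xcl1, the ligand of XCR1, 0.126, and neither was called.

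Homeostatic ligands of CCR6, CCR7, CCR9 and CCR10 were low or not detected. Ccl25, the ligand of CCR9, lay between 0.583 and 1.01 FPKM, with a log2 difference of 0.21 and 0.20 (adjusted p = 0.00239 and 0.00238, limma) that was not called under median centring (0.07 and 0.06) or quantile normalization. Ccl27a, a ligand of CCR10, lay between 0.254 and 0.874 FPKM and was higher by 0.32 and 0.39 (adjusted p = 0.00186 and 2.96e-04, limma). However, 69.2% of the 50-base stretches of its transcript also occur in other genes, mostly Gm20878, so its value is uncertain. Ccl28 was at most 0.0687 FPKM and was called lower in both comparisons, with differences of -0.05 and -0.05, at or under the level of 3 fragments in all miRNA samples. Ccl20, the ligand of CCR6, reached 0.274 FPKM. Ccl1, Ccl19, Ccl21a, Ccl21b, Ccl27b, Cxcl13 and Cxcl15 were listed at 0 in every sample. For Ccl21b, Ccl27b, Ccl21a and Ccl19, 100%, 98.1%, 71.6% and 59.1% of the 50-base stretches occur in other genes, so reads of these genes could have been assigned elsewhere.

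Comparing miR-451a directly with miR-144, limma called 0 of the 17 ligands and 0 of the 11419 genes (0.0%). At an unadjusted p under 0.05 there were 2 ligands and 596 genes. Ccl8 differed by -0.65 (95% confidence interval -1.04 to -0.26, adjusted p = 0.775, limma), and the samples of the groups overlapped. Cxcl12 differed by 0.65 (0.28 to 1.02, adjusted p = 0.775, limma), or 0.45 without miR-451a replicate 1. It was the 1 tested ligand whose samples did not overlap between the miRNA groups, as was so for 0.849% of all genes. The interval of Ccl6 was -0.12 to 0.19 and that of Cxcl10 -0.27 to 0.14 on the log2 scale, while that of Pf4 was as wide as -0.65 to 0.76. A difference that was not called does not show that the miRNA groups were alike.

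Replicates 3 and 4 stood at the same end of every group for some ligands. They were the highest samples for Pf4 and the lowest for Ccl3, Ccl4 and Cxcl5 in all 3 groups, which makes 4 of 17 ligands, beside 4.55% of all tested genes at either end. The labels name no batch that the numbers could stand for. Cxcl5 had 2.02 and 1.86 FPKM in control replicates 3 and 4 against 2.96 to 4.22 in the others, 1.59 and 1.54 with miR-144 against 3.46 to 4.36, and 1.04 and 1.93 with miR-451a against 2.57 to 4.46. The Kupffer cell list was also highest in these replicates of both miRNA groups, with 46.2 and 50.1 FPKM against at most 20.7 with miR-144, and 39.6 and 47.3 against at most 19.2 with miR-451a. In control TAMs that list did not single them out. Its part in the pattern was not tested.

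Of the 13 tested ligands other than these 4, 10 were called for miR-144 within replicates 3 and 4 alone, beside 52.4% of all genes, and 11 for miR-451a, beside 52.8%. Within replicates 1, 2 and 5 it was 11 in each comparison, beside 57.4% and 59.8%. The log2 difference of Pf4 with miR-144 was -0.67 in replicates 3 and 4 and -0.99 in replicates 1, 2 and 5, and with miR-451a -0.41 and -1.08. For Ccl3 with miR-144 the values were 1.48 and 1.41, and for Ccl4 1.93 and 1.98. Cxcl12 with miR-451a differed by 0.72 in replicates 3 and 4 and by 1.21 in the others, and was called in both. These replicates were set apart by the values of Pf4, Ccl3, Ccl4 and Cxcl5 themselves, so their values within the subsets are a description and their calls there are not given.

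**Figure D5:**
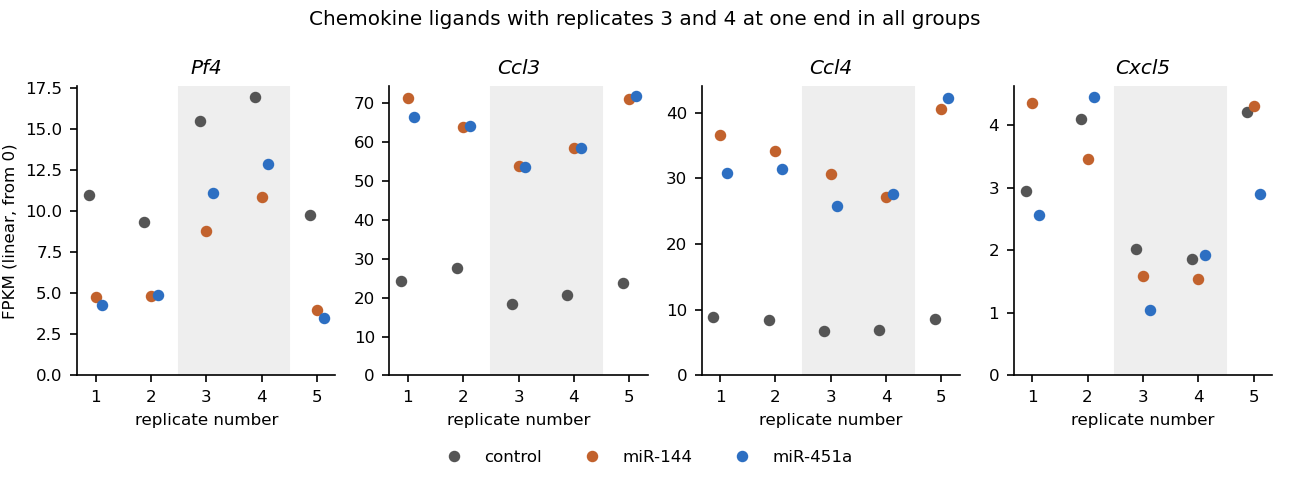
FPKM (vertical axes, linear and starting at 0) of Pf4, Ccl3, Ccl4 and Cxcl5 against the replicate number of the sample, 1 point per sample, with replicates 3 and 4 shaded. In the shaded band Pf4 is highest and Ccl3, Ccl4 and Cxcl5 are lowest within each group, while the groups stay apart for Ccl3 and Ccl4.

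The receptors of these ligands were read in the same samples. Of 23 chemokine receptor genes, 6 had a mean of at least 1 FPKM, and in both comparisons 4 were called higher, among them Cxcr3 and Cxcr4, and 2 lower (Ccr1 and the atypical receptor Ccrl2), beside 47.1% of all genes higher and 20.1% lower with miR-144 and 48.1% and 20.3% with miR-451a. Ccr1, the receptor of Ccl6, Ccl9 and Ccl3, had 7.54 ± 0.727 FPKM in control TAMs, 2.70 ± 1.13 with miR-144 and 2.96 ± 1.3 with miR-451a (mean ± SD, n = 5), with log2 differences of -1.26 and -1.17. Cxcr4, the receptor of Cxcl12, was the most abundant with 112 ± 2.47, 187 ± 13.6 and 177 ± 12.7 FPKM in the same order and log2 differences of 0.73 and 0.65. Cxcr3, the receptor of Cxcl9 and Cxcl10, rose from 0.0725 to 0.146 FPKM in control samples to 1.99 to 3.35 with miR-144 and 2.15 to 3.2 with miR-451a, with log2 differences of 1.68 and 1.75.

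Ccr2, the receptor of Ccl2, Ccl7 and Ccl12, was under 1 FPKM on average and went opposite to its ligands, with 0.116 to 0.259 FPKM in control samples, 0.939 to 1.16 with miR-144 and 1.32 to 1.5 with miR-451a. Its log2 differences in the fit without a minimum were 0.82 and 1.04 (adjusted p = 3.81e-09 and 2.67e-10, limma). The receptors of Ccl8, Ccl24, Ccl22 and Cxcl2 were low, with Ccr8 at most 0.0398 FPKM, Ccr3 between 0.331 and 0.832, Ccr4 at most 0.0432 and Cxcr2 at most 0.146. Cxcr6, the receptor of Cxcl16, lay between 0.0920 and 0.237 FPKM. In the fit without a minimum, 7 of 22 receptors were called higher and 4 lower with miR-144, beside 23.1% and 9.65% of all genes, and 10 higher and 4 lower with miR-451a, beside 24.5% and 9.69%.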

How the data were processed

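TAMs in 15 samples, 5 in each of the groups control, miR-144 and miR-451a, were profiled by RNA-seq, and samples were grouped by the titles in the labels. The authors deposited FPKM per gene in 1 table of 55335 genes. The submitters' processing notes name FastQC (version 0.11.2), STAR and StringTie, and the genome build is not given in the sources used here. The members and lists were chosen with earlier results of these data known. Every ligand with a mean of at least 1 FPKM was named with its means and differences, with the value in every sample for those called with a log2 difference of at least 1 and for the 3 most abundant, and every other ligand was named by its range, as a rule. Values of Pf4, Ccl11, Ccl17 and Ccl22 in single samples were added after they were seen.

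Group means were compared with limma (version 3.58.1, R version 4.3.3) on log2(FPKM + 1), with all 3 groups in the same fit and a trend of the variance with the mean. P-values were adjusted by Benjamini-Hochberg over the 11419 genes averaging 1 FPKM or more, or over 29540 genes above 0 in some sample for lower ligands. Tables were made with Python 3.11.15, numpy 2.4.6, pandas 2.3.3 and scipy 1.17.1, and figures with matplotlib 3.10.9. Read counts were not recovered, so no count test was run, and the depth and the level of 3 fragments (counting error only) are estimates from the steps between low values. No pair of samples held identical values, and the lowest mean chi-square per gene within a group was 4.04. Alternatives were a pseudocount of 0.1, no minimum and a minimum of 5 FPKM, quantile normalization, median centring, TPM in place of FPKM, a replicate block, no trend, 2 groups only, a minimum log2 difference of 1 and leaving out each sample. Fits within replicates 3 and 4 and within replicates 1, 2 and 5, and the alternatives for ligands under 1 FPKM, were added after seeing the data. All 40 ligands were found by gene ID in GENCODE release M21 (GRCm38), which gave positions, and the RefSeq table used here gave promoter windows for 29 of them. Some receptor, marker and motif results are not reported here.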

Additional observations from a re-analysis of the deposited data

Results flagged for a closer look

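In 51 sets of 5 values, the tested ligands in each group, 3 held a sample that stood apart from the other 4 by Dixon's test, and chance gives about 1 in 20 sets, which is 2.55 here. For Cxcl12, miR-451a replicate 1 stood at 8.66 FPKM, above a next value of 4.44. This sample was also the highest of its group for Ppbp and for the summed platelet and fibroblast genes. Also for Cxcl12, miR-144 replicate 3 lay at 2.32 FPKM, below a next value of 2.59. For Cxcl14, control replicate 4 was at 1.19 FPKM, above a next value of 0.902. The cause was not tested for any of them.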

How the results depend on the processing

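The number of ligands called kept within 1.5 times its value in 74 of 75 alternatives over the 3 comparisons, not counting the fits within replicates 3 and 4 and within replicates 1, 2 and 5. The exception was miR-451a against control with no minimum level, where 22 of 33 ligands were called, because 16 further ligands were tested. With miR-144 and no minimum level 21 were called against 14 in the main fit, which is at that limit and counts as kept. Between the miRNA groups the count was 0 in the main fit and in every one of these alternatives, which all count as kept. Leaving out 1 sample gave 13 to 15 called ligands for miR-144, 13 to 14 for miR-451a and 0 to 0 between the miRNA groups. Same-numbered samples did not all deviate together. Their correlations were -0.15 to 0.26 over all genes, 8 of 15 passed 0.1, among them all 3 for replicate 4, and the numbers were not taken as pairs. In 4 of the 15 the correlation was above that with every other number. With the replicate number as a block, 14, 14 and 0 of 17 ligands were called, beside 7711, 7859 and 0 of 11419 genes, and no call of the 17 changed. In the fit without a minimum the block left 21 of 33 ligands called with miR-144 (9 higher and 12 lower) and gave 23 with miR-451a (11 higher and 12 lower), beside 9635 and 10030 of 29540 genes, where Pf4 became called in both (-0.87 and -0.81, adjusted p = 2.59e-04 and 3.78e-04, limma) and Cxcl14 lost its call with miR-144 (adjusted p = 0.0648, limma). Of 1206 further results for single tested ligands under the same alternatives, 5 became called and 16 lost the call, which concerned Ccl5, Cxcl12, Cxcl14 and Pf4. Cxcl12 with miR-144 was called with a pseudocount of 0.1 (0.53), after rescaling to TPM (0.55) and with 2 groups only (0.37). Median centring in the fit without a minimum subtracts an offset from values at or near 0. There it turned the difference with miR-144 to -0.10 for Cxcl11, -0.13 for Cxcl17, -0.10 for Cxcl3 and -0.12 for Xcl1, and with miR-451a to -0.13 for Ccl20, -0.12 for Cxcl11, -0.12 for Cxcl17 and -0.11 for Xcl1. Quantile normalization gave 5 higher and 8 lower ligands for miR-144 and 6 and 8 for miR-451a, with 52.3% of all called genes higher in both. Ligands under about 0.1 FPKM rest on a few fragments.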
